A study of Mus musculus with 6 samples.

Results

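The 36 genes described here are those by which a fat cell is recognised or through which lipid is made, stored and released. They were taken from a list of gene symbols with no threshold on their values, and all 36 were found among the 17352 genes of the table. RNA was sequenced from 6 whole subcutaneous tumours of Panc02, a line of mouse pancreatic cancer cells, taken 4 weeks after implantation. In 3 tumours (deficient 3, 4 and 5) the hosts were Anxa1ΔMɸ mice, which lack annexin A1 in the myeloid lineage, to which macrophages and neutrophils belong. In the other 3 (wild type 2, 3 and 5) the hosts were Anxa1flox/flox mice, which carry the floxed gene and are labelled wild type. All 6 sample names contain HFD, an abbreviation left undefined in the labels. The sources used here do not give the promoter that drives the Cre or the sex, age and strain of the hosts. The labels do not say whether the libraries of a group come from separate animals, so p-values measure only the spread between these samples.

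Fat cells keep triglyceride in a single large droplet, whose surface proteins govern how it fuses and how lipases reach it. They take up fatty acids that lipoprotein lipase frees from circulating particles, make others from glucose, and release hormones such as adiponectin and leptin. The nuclear receptor PPARγ and the factor C/EBPα drive the genes of the mature cell. Fat lies directly under the skin, where these tumours were grown, and many genes of lipid synthesis and breakdown are also used by tumour cells and macrophages.

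The promoters of 5 genes are shown as examples, each with a motif marked. Adipoq, Lep, Plin1 and Cidec are among the genes that varied widely between tumours, and Acly among those that hardly varied. Each window is the 250 bases before the start of the gene in RefSeq on GRCm38.p6, printed from 5′ to 3′ on the strand of the gene. They lie at chr16:23146286-23146535 (plus strand) for Adipoq, chr6:29059971-29060220 (plus) for Lep, chr7:79732777-79733026 (minus) for Plin1, chr6:113434765-113435014 (minus, 1 of the 2 windows of the gene) for Cidec and chr11:100528001-100528250 (minus) for Acly. Capitals mark the CCAAT box (CCAAT or ATTGG) in Adipoq, the C/EBP core (TTNNGCAA on either strand) in Lep, Plin1 and Cidec, and the GC box (GGGCGG or CCGCCC) in Acly.
Adipoq: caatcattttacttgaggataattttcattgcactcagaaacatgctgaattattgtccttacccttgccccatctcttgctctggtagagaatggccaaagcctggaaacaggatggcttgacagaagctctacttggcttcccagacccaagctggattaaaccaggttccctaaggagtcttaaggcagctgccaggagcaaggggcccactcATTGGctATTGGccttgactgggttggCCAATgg
Lep: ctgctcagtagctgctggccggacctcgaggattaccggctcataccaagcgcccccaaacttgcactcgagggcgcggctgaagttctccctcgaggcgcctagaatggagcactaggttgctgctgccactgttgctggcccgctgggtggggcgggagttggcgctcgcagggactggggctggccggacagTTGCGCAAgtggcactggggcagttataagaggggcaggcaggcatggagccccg
Plin1: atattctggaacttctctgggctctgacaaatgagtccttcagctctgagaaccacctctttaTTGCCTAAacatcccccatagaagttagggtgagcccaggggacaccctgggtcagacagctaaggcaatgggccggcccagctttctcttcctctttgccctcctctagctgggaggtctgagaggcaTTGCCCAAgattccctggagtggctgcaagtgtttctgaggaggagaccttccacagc
Cidec: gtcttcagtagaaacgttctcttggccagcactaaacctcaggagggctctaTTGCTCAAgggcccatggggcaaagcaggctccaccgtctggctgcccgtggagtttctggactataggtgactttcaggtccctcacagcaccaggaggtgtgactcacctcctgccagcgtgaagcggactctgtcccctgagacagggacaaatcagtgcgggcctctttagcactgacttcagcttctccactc
Acly: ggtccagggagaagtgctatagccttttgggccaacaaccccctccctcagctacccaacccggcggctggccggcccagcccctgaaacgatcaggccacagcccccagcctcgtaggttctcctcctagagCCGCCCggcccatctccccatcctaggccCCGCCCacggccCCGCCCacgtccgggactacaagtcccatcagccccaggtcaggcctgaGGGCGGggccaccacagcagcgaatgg

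RefSeq windows were found for 26 of the 36 genes, 34 windows in all. The C/EBP core was present in 4 of the 34 (11.8%), those of Lep, Plin1, Cidec and Pparg, against 9.56% of all 32851 windows. Among genes with a window, 3 of 9 that varied widely held it, and 0 of 9 that hardly varied. Adipoq held 3 CCAAT boxes, a motif found in 12 of the 34 windows (35.3%) and in 33.8% of all windows. Acly held 4 GC boxes, found in 15 of the 34 (44.1%) and in 32.7% of all. TATAAA was found in 3 of the 34 (8.82%, against 12.4% of all). Each motif was searched on both strands and on its own, so a base may belong to matches of more than one motif. A match is a description of the letters only.

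Depth was alike across tumours, with 36282109 to 39650881 fragments over the genes of each library and 15671 to 16035 genes above 0. Exons of 11 of the 36 genes overlap another gene in GENCODE M21, a protein-coding one in 2 cases, and whether counting used strand is not stated. Anxa1 had 250, 330 and 291 FPKM in deficient 3, 4 and 5, against 342, 354 and 394 FPKM in wild type 2, 3 and 5, and did not pass the test (adjusted p = 0.268). A myeloid deletion leaves Anxa1 in all other cells, so its level in whole tumours does not check the labels closely. The groups were also separated by a Y-linked gene, Ddx3y, which had 0.0441, 0.126 and 0 FPKM in the deficient tumours, against 3.13, 5.26 and 6.79 FPKM in the wild-type tumours. The sex of the material and the genotype of the host can therefore not be told apart in any result here. Krt8, a keratin of epithelial tumour cells, had 266, 259 and 198 FPKM in the deficient tumours, against 259, 219 and 206 FPKM in the wild-type tumours.

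None of the adipocyte and lipid storage genes passed the test between genotypes. The summed level of 6 fat cell markers (Adipoq, Plin1, Cidec, Lep, Cfd and Retn) was higher in each deficient tumour than in any wild-type tumour. That separation rested on Cfd and on leaving out Fabp4, which was on the planned list of fat cell markers. Adipoq, Plin1, Lep and Fabp4 each overlapped between the groups. Levels are FPKM, fragments scaled to transcript length and to sequencing depth, and differences are log2 fold changes, deficient minus wild type, of log2(FPKM + 1), tested with limma-trend across all 12257 genes that had a mean of at least 0.5 FPKM. The filter kept 27 of the 36 genes, and 0 of the 27 were called at an adjusted p under 0.05, against 0.979% of all tested genes called higher and 0.228% called lower. By limma-voom on fragment numbers the count was also 0. At an unadjusted p under 0.05, 12 of the 27 were higher and 0 lower, against 9.86% and 5.25% of all tested genes. The log2 fold change was above 0 in 23 of the 27 (54.7% of all tested genes) and at least 1 in 12 (1.39% of all) and -1 or lower in 0 (0.392% of all), and its median was 0.69, against 0.02 over all tested genes. The 3 deficient tumours all exceeded the 3 wild-type tumours in 8 of the 27, namely Retn, Cfd, Cidec, Cd36, Scd1, Thrsp, Pck1 and Aoc3, against 11.8% of all tested genes, and in 0 of the 27 did the reverse hold, against 8.31%. In these whole tumours, fewer cells of a type and less RNA per cell cannot be told apart.

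The count of calls depended on which library was left out. With deficient 4 left out, 8 of the 27 genes were called higher, against 2.20% of all tested genes, and these were Lep, Retn, Plin1, Cidec, Lpl, Scd1, Thrsp and Pck1, with log2 fold changes between 1.96 and 3.33 and limma-trend adjusted p between 0.00699 and 0.0389. Without deficient 5 the median log2 fold change of the 27 was 0.32. Without wild type 5, Cd36 alone was called, at 2.44 (limma-trend adjusted p = 0.0225).

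**Figure D1:**
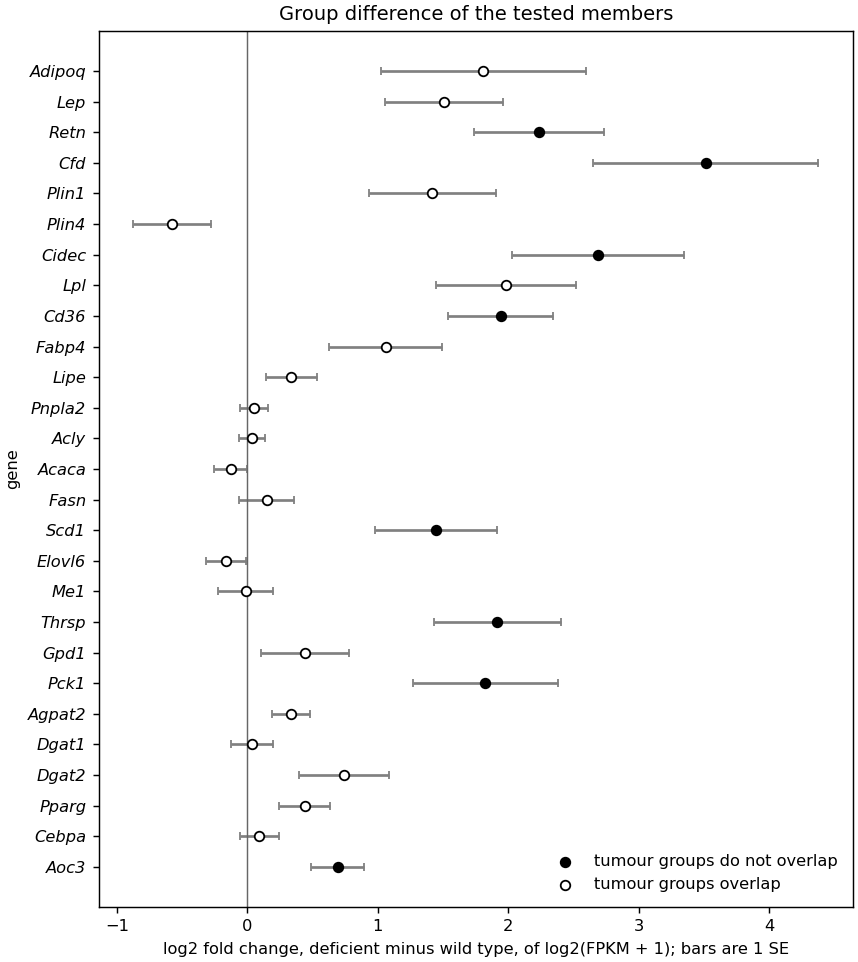
Log2 fold change of log2(FPKM + 1), deficient minus wild type, for the 27 tested genes, with bars of 1 SE from limma-trend; filled points are genes whose tumour groups do not overlap. The largest values are those of Cfd (3.51) and Cidec (2.69), the enzymes of fatty acid synthesis other than Scd1 and Thrsp lie near 0, and Plin4 lies lowest at -0.58.

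Among the secreted products of fat cells, all 4 had higher mean levels in the deficient tumours and 0 of 4 passed the test. Adiponectin, encoded by Adipoq, is made almost only by fat cells. Adipoq had 15.8, 5.57 and 26.9 FPKM in deficient 3, 4 and 5, against 3.91, 0.313 and 10.1 FPKM in wild type 2, 3 and 5. The groups overlapped, since wild type 5 exceeded deficient 4, and the lowest and highest tumours differed 86.1-fold. Its log2 fold change was 1.81 (SE 0.79, limma-trend adjusted p = 0.336). Leptin (Lep), the hormone by which fat signals satiety, had 4.51, 1.22 and 5.52 FPKM in the deficient tumours, against 0.311, 0.0473 and 1.51 FPKM in the wild-type tumours. Here too wild type 5 stood above deficient 4, and the log2 fold change was 1.51 (SE 0.45, adjusted p = 0.187).

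For resistin and adipsin the groups did not overlap. Resistin (Retn), which in mice is a hormone of fat cells, had 4.92, 1.21 and 9.92 FPKM in the deficient tumours, against 0.0787, 0 and 0.260 FPKM in the wild-type tumours. These levels rest on 237, 64 and 481 fragments in the deficient tumours and on 4, 0 and 13 in the wild-type tumours, with deficient 5 the highest. Its log2 fold change was 2.24 (SE 0.50, adjusted p = 0.0954), and with a pseudocount of 0.1 in place of 1 it was called (limma-trend adjusted p = 0.0464). Adipsin, or complement factor D (Cfd), the protease that starts the alternative complement pathway, had 51.4, 32.6 and 148.1 FPKM in the deficient tumours, against 9.42, 0.390 and 11.2 FPKM in the wild-type tumours. Deficient 5 again stood highest, and deficient 4 had 2.92 times the level of wild type 5. Cfd had the largest log2 fold change of the 27 genes on this scale, 3.51 (SE 0.86, adjusted p = 0.122). By limma-voom on fragment numbers Retn (5.93), Pck1 (5.61), Cidec (4.74) and Thrsp (4.35) had larger log2 fold changes than Cfd (4.15).

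**Figure D2:**
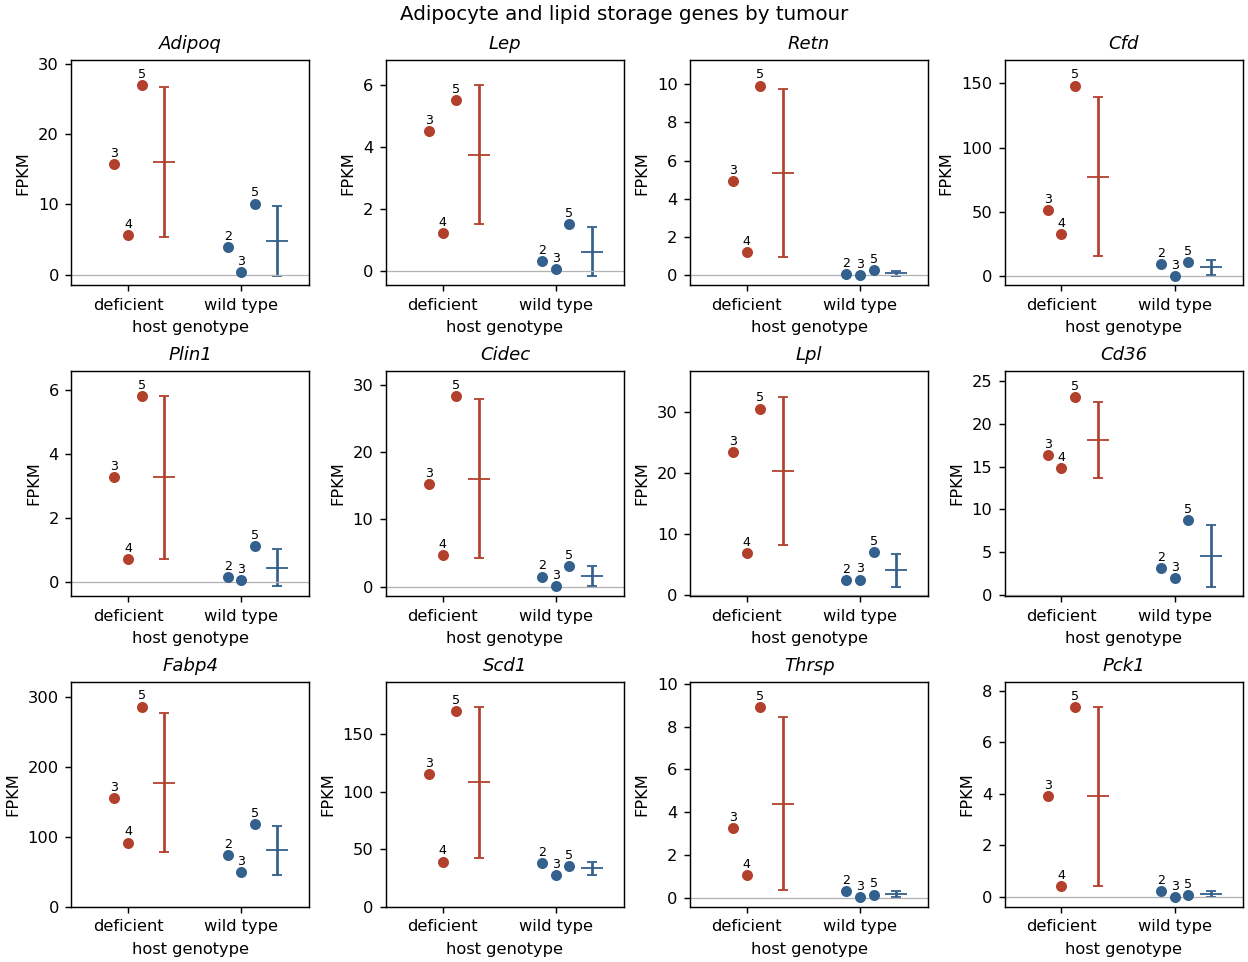
FPKM on a linear axis of 12 of the genes in each tumour, deficient left of wild type, with small digits for tumour numbers and bars for mean ± SD (n = 3 each). Deficient 5 is the highest tumour in all 12 panels, and deficient 4 lies near the wild-type tumours for Adipoq, Lep, Plin1, Lpl, Fabp4 and Scd1.

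Of the genes for proteins of the lipid droplet surface, 0 of the 3 tested passed. Perilipin 1 (Plin1), which coats the droplet of fat cells and holds lipases off, had 3.29, 0.737 and 5.82 FPKM in the deficient tumours, against 0.172, 0.0671 and 1.13 FPKM in the wild-type tumours. Wild type 5 exceeded deficient 4, and the log2 fold change was 1.42 (SE 0.48, adjusted p = 0.233). Cidec, which fuses droplets into a single large one, had 15.2, 4.69 and 28.4 FPKM in the deficient tumours, against 1.49, 0.0146 and 3.03 FPKM in the wild-type tumours. The groups did not overlap, and the log2 fold change was 2.69 (SE 0.66, adjusted p = 0.122). The value of wild type 3 was a single fragment, with an exact 95% Poisson interval of 0.0253 to 5.57 fragments that covers counting error only.

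Perilipin 4 (Plin4), another coat protein, took the other direction. It had 6.42, 4.21 and 5.20 FPKM in the deficient tumours, against 6.14, 6.18 and 14.5 FPKM in the wild-type tumours. Only wild type 5 stood apart, the groups overlapped, and the log2 fold change was -0.58 (SE 0.30, adjusted p = 0.423). An exon of Plin4 overlaps Hdgfl2 on the opposite strand in GENCODE M21, so its reads are uncertain. Perilipin 5 (Plin5), the coat of oxidative tissues, and Cidea, a droplet protein of brown fat, were below the filter, at 0 to 0.126 FPKM and 0 to 0.0228 FPKM.

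Genes of fatty acid uptake and transport were higher in value in the deficient tumours, and 0 of the 3 tested passed. Cd36, a fatty acid receptor of fat cells, endothelium and macrophages, had 16.3, 14.9 and 23.2 FPKM in the deficient tumours, against 3.08, 1.95 and 8.71 FPKM in the wild-type tumours. The groups did not overlap, and deficient 4 was close to deficient 3 for this gene. Its adjusted p was the lowest of the 27, and its log2 fold change was 1.94 (SE 0.40, limma-trend adjusted p = 0.0781). Lipoprotein lipase (Lpl), which frees fatty acids at the vessel wall, had 23.4, 6.81 and 30.5 FPKM in the deficient tumours, against 2.48, 2.48 and 7.05 FPKM in the wild-type tumours. Deficient 4 and wild type 5 were nearly equal, and the log2 fold change was 1.98 (SE 0.54, adjusted p = 0.153).

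Fabp4, a fatty acid carrier abundant in fat cells and also found in capillary endothelium and macrophages, was the most abundant of the 36 genes by FPKM. It had 155, 91.7 and 286 FPKM in the deficient tumours, against 74.2, 50.01 and 119 FPKM in the wild-type tumours. Wild type 5 exceeded deficient 4, and the log2 fold change was 1.06 (SE 0.43, adjusted p = 0.308). Slc2a4, the insulin-responsive glucose transporter GLUT4, was below the filter, at 0.164 to 0.774 FPKM in the deficient tumours and 0.140 to 0.227 FPKM in the wild-type tumours.

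In fatty acid synthesis 0 of the 7 tested genes passed, and only Scd1 and Thrsp had values that did not overlap between the groups. ATP citrate lyase (Acly), which makes cytosolic acetyl-CoA, had 28.5, 24.0 and 22.8 FPKM in the deficient tumours, against 25.4, 23.9 and 24.0 FPKM in the wild-type tumours. The groups overlapped and the tumours differed by at most 1.25-fold, and its log2 fold change was 0.04 (SE 0.10, adjusted p = 0.900). Fatty acid synthase (Fasn) had 22.6, 12.4 and 14.4 FPKM in the deficient tumours, against 17.0, 12.3 and 13.9 FPKM in the wild-type tumours. Its log2 fold change was 0.15 (SE 0.21, adjusted p = 0.796), and Acaca, the acetyl-CoA carboxylase of the cytosol, had -0.13 on that scale (SE 0.13, adjusted p = 0.677) with 6.08 to 8.19 FPKM in the deficient tumours and 7.04 to 8.01 FPKM in the wild-type tumours. The elongase Elovl6 and malic enzyme (Me1), which supplies NADPH, had log2 fold changes of -0.16 (adjusted p = 0.663) and -0.02 (adjusted p = 0.983). Acacb, the mitochondrial carboxylase, was below the filter at 0.136 to 0.361 FPKM.

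Stearoyl-CoA desaturase (Scd1), which makes monounsaturated fatty acids, had 115, 39.2 and 170 FPKM in the deficient tumours, against 37.7, 27.2 and 35.2 FPKM in the wild-type tumours. The groups did not overlap, but deficient 4 lay only just above wild type 2, and the log2 fold change was 1.45 (SE 0.47, adjusted p = 0.210). Thrsp, a protein that stimulates lipogenesis in fat and liver, had 3.25, 1.06 and 8.91 FPKM in the deficient tumours, against 0.322, 0.0466 and 0.163 FPKM in the wild-type tumours. Its groups did not overlap, the wild-type values rest on 14, 2 and 7 fragments, and the log2 fold change was 1.92 (SE 0.49, adjusted p = 0.133).

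In triglyceride synthesis the largest difference was that of Pck1, the carboxykinase that supplies the glycerol backbone in fat cells. Pck1 had 3.90, 0.425 and 7.37 FPKM in the deficient tumours, against 0.221, 0 and 0.0779 FPKM in the wild-type tumours. The groups did not overlap, the wild-type values rest on 23, 0 and 8 fragments, and the log2 fold change was 1.82 (SE 0.56, adjusted p = 0.193). Glycerol-3-phosphate dehydrogenase (Gpd1) had 8.58, 3.80 and 12.7 FPKM in the deficient tumours, against 6.02, 5.17 and 4.81 FPKM in the wild-type tumours. Deficient 4 was the lowest of all 6 tumours for Gpd1, and the log2 fold change was 0.44 (SE 0.34, adjusted p = 0.583).

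Dgat1 and Dgat2 encode the acyltransferases of the last step of triglyceride synthesis. Dgat2 had 2.61, 1.99 and 7.15 FPKM in the deficient tumours, against 1.27, 2.03 and 1.76 FPKM in the wild-type tumours, and deficient 5 alone stood high (log2 fold change 0.74, SE 0.34, adjusted p = 0.373). Dgat1 had 7.56, 7.67 and 10.1 FPKM in the deficient tumours, against 6.995, 10.2 and 7.57 FPKM in the wild-type tumours, and its log2 fold change was 0.03 (SE 0.16, adjusted p = 0.947). Agpat2, an acyltransferase of an earlier step whose loss causes lipodystrophy, had 19.6 to 25.01 FPKM in the deficient tumours and 15.0 to 21.3 FPKM in the wild-type tumours (log2 fold change 0.33, adjusted p = 0.333). An exon of Agpat2 overlaps Egfl7, an endothelial gene, on the opposite strand, so its reads are uncertain too.

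Of the lipases that free stored fatty acids, 0 of the 2 tested passed. Adipose triglyceride lipase (Pnpla2), which takes the first fatty acid from triglyceride, had 46.8, 57.0 and 58.0 FPKM in the deficient tumours, against 48.5, 50.8 and 56.6 FPKM in the wild-type tumours. The tumours differed by at most 1.24-fold, and the log2 fold change was 0.05 (SE 0.11, adjusted p = 0.879). Hormone-sensitive lipase (Lipe) had 7.95, 6.12 and 11.4 FPKM in the deficient tumours, against 6.07, 5.81 and 7.12 FPKM in the wild-type tumours, and its log2 fold change was 0.34 (SE 0.19, adjusted p = 0.464). Adrb3, the β3 adrenergic receptor that starts lipolysis, was below the filter with 9, 4 and 4 fragments in the deficient tumours and 1, 1 and 0 in the wild-type tumours. Pnpla3, a lipid hydrolase related to Pnpla2, was also below it, with 31, 0 and 100 fragments in the deficient tumours and 2, 1 and 1 in the wild-type tumours.

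Of the factors that drive the fat cell programme, 0 of the 2 tested passed. Pparg had 1.87, 0.871 and 1.97 FPKM in the deficient tumours, against 0.944, 0.654 and 0.995 FPKM in the wild-type tumours. Deficient 4 lay within the wild-type range, and the log2 fold change was 0.44 (SE 0.19, adjusted p = 0.342). Cebpa had 32.5, 24.7 and 38.4 FPKM in the deficient tumours, against 29.7, 31.2 and 27.4 FPKM in the wild-type tumours, and its log2 fold change was 0.09 (SE 0.15, adjusted p = 0.828). Mlxipl, which encodes the glucose-sensing factor ChREBP, was below the filter at 0 to 0.131 FPKM.

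The last 3 genes are the amine oxidase Aoc3, the receptor Acvr1c (ALK7) and the uncoupling protein Ucp1 of brown fat. Aoc3, found on fat cells, vessels and smooth muscle, had 5.21, 4.85 and 4.66 FPKM in the deficient tumours, against 1.63, 3.001 and 3.64 FPKM in the wild-type tumours. Its groups did not overlap, the deficient tumours were close to each other in an order unlike that of the fat cell markers, and the log2 fold change was 0.69 (SE 0.20, adjusted p = 0.172). Acvr1c had 3, 5 and 32 fragments in the deficient tumours and 0, 0 and 4 in the wild-type tumours, below the filter. Ucp1 was at 0 in the deficient tumours and in wild type 3 and 5, and had 0.0154 FPKM in wild type 2.

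The genes divided by how far they ranged over the 6 tumours. The highest tumour exceeded the lowest more than 10-fold, or the lowest was at 0, in 10 of the 27 (Adipoq, Lep, Retn, Cfd, Plin1, Cidec, Lpl, Cd36, Thrsp and Pck1), against 1.47% of all tested genes. The ratio was under 2 in another 10 (Lipe, Pnpla2, Acly, Acaca, Fasn, Elovl6, Me1, Agpat2, Dgat1 and Cebpa), against 82.2% of all. The first set holds the hormones and the tested uptake genes other than Fabp4, and the second holds the lipases and most enzymes of synthesis. The order of the tumours was shared: deficient 5 was the highest tumour in 19 of the 27 genes (21.7% of all tested genes) and wild type 3 the lowest in 15 (22.1% of all), both at once in 14 (7.38% of all). Within the deficient tumours, the order of 5 above 3 above 4 held in 20 of the 27 genes (19.3% of all), and deficient 4 was the lowest of the 3 in 22. These orders describe the same libraries and are no test between the genotypes.

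**Figure D3:**
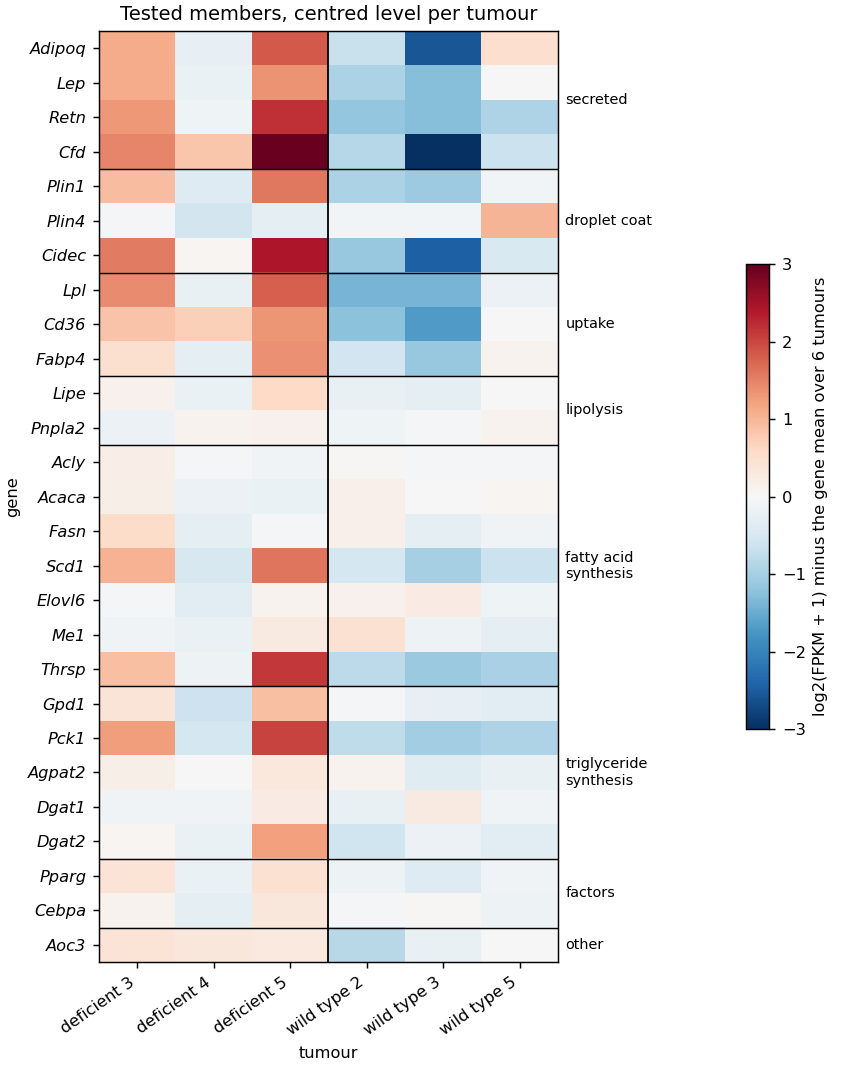
Level of each of the 27 tested genes per tumour as log2(FPKM + 1) minus the mean of the gene over the 6 tumours, with deficient tumours left of wild-type tumours and genes grouped by role; colours saturate at 3 and -3. Deficient 5 and deficient 3 are the reddest columns for secreted, uptake and most wide-ranging genes, wild type 3 is the bluest, and the lipases and most synthesis enzymes are pale throughout.

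The summed level of the 6 fat cell markers was 95.1, 46.1 and 225 FPKM in the deficient tumours, against 15.4, 0.832 and 27.2 FPKM in the wild-type tumours. Cfd gave 32.6 of the 46.1 FPKM of deficient 4 and 11.2 of the 27.2 FPKM of wild type 5. Without Cfd the rest summed lower in deficient 4 than in wild type 5. Fabp4, also abundant in fat cells, was on the planned list of markers but is not in the sum. It had 91.7 FPKM in deficient 4 and 119 FPKM in wild type 5. With Fabp4 added, wild type 5 sums higher than deficient 4, so the groups overlap. Fragments of all 6 genes were present in every tumour except wild type 3, where Adipoq rested on 15 fragments, Plin1 on 5 and Retn on 0. By this sum deficient 4, the lowest of its group, lay closest to wild type 5, the highest of its group, and 14 of the 27 genes were higher in deficient 4 than in wild type 5. Adipoq in deficient 4 was 0.552 times its level in wild type 5, Plin1 0.654 times and Lep 0.805 times. In the same pair Retn was 4.67 times, Thrsp 6.50 times, Pck1 5.45 times and Cidec 1.55 times as high in deficient 4.

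Levels relative to Adipoq, chosen after the values were seen, were compared for 12 of the genes. For 6 of the 12 all deficient tumours exceeded all wild-type tumours, and for 0 of the 12 the reverse held. This depended on the gene divided by. Relative to Plin1 in place of Adipoq, Cidec, Cfd, Lep, Thrsp and Pck1 were each highest in wild type 2, where Plin1 had 13 fragments. Of the 6 genes, Retn alone was higher without overlap on that scale. Over all tested genes other than Adipoq, the level relative to Adipoq was higher without overlap in 0.106% and lower without overlap in 2.16%. Genes that varied less than Adipoq can hardly come out higher. In wild type 3, where Adipoq was lowest, their ratio is large (160 for Fabp4, 87 for Scd1). The 0.106% is therefore no measure for the 6 genes. The ratios are given as a description with no test because the 12 were chosen on these values. The ratio of Cidec to Adipoq was 0.966, 0.841 and 1.05 in the deficient tumours, against 0.381, 0.0468 and 0.300 in the wild-type tumours. The ratio of Retn to Adipoq was 0.312, 0.217 and 0.368 in the deficient tumours, against 0.0202, 0 and 0.0257 in the wild-type tumours. For Cfd the ratio was 3.26, 5.86 and 5.50 in the deficient tumours, against 2.41, 1.25 and 1.11 in the wild-type tumours. Lep stood at 0.286, 0.219 and 0.205 times Adipoq in the deficient tumours, against 0.0796, 0.151 and 0.150 times in the wild-type tumours. Thrsp and Pck1 were the other two, and Plin1, Lpl, Cd36, Fabp4, Scd1 and Dgat2 overlapped. The ratios of wild type 3 carry wide counting error, since Adipoq itself had 15 fragments there, with an exact 95% Poisson interval of 8.40 to 24.7. All 12 ratios share the same Adipoq values.

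**Figure D4:**
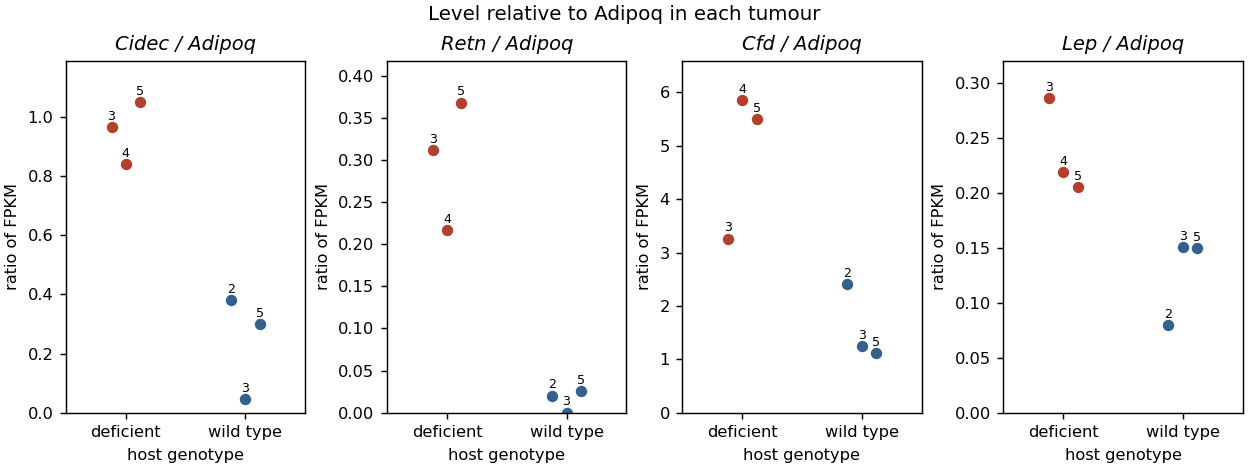
FPKM of Cidec, Retn, Cfd and Lep divided by that of Adipoq in each tumour, deficient left of wild type, on linear axes; digits are tumour numbers and each point is 1 library. In each panel the lowest deficient tumour lies above the highest wild-type tumour, for Cidec at 0.841 against 0.381.

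Beyond the 36 genes, other genes known from fat cells divided evenly. Of 21 tested, 10 had a log2 fold change above 0 and 11 below, 0 were called in either direction, and the median was -0.04. Highest by mean level over the 6 tumours were the caveola genes Cavin1 (133 ± 1.64 FPKM in deficient and 138 ± 2.68 FPKM in wild-type tumours, SD, n = 3 each) and Cav1 (log2 fold change -0.47, limma-trend adjusted p = 0.117), and Tmem120a (-0.16, adjusted p = 0.712). Car3, next by mean level, and Bscl2 were picked after their values were seen. Car3, a carbonic anhydrase abundant in fat, had 57.8, 21.7 and 116 FPKM in the deficient tumours, against 8.86, 3.41 and 16.5 FPKM in the wild-type tumours, without overlap and in the same tumour order as Cidec within the deficient group (log2 fold change 2.56, SE 0.65, adjusted p = 0.133). Bscl2, which encodes seipin, a protein of droplet formation, had 9.54, 9.29 and 10.1 FPKM in the deficient tumours, against 6.56, 6.97 and 6.90 FPKM in the wild-type tumours (log2 fold change 0.45, SE 0.08, adjusted p = 0.0608).

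Of 24 further genes of triglyceride handling and lipases, 15 had a log2 fold change above 0 and 9 below, 0 were called higher and 1 was called lower. That gene was Gpihbp1, which carries lipoprotein lipase to the surface of capillary endothelium. Gpihbp1 had 19.8, 18.2 and 18.6 FPKM in the deficient tumours, against 27.3, 28.6 and 26.4 FPKM in the wild-type tumours. The groups were tight and far apart, and the log2 fold change was -0.52 (SE 0.08, limma-trend adjusted p = 0.0357). The call did not hold by limma-voom (adjusted p = 0.0823), with no filter (0.0687), or without deficient 3, deficient 5 or any of the wild-type tumours (0.0676 to 0.176), while the log2 fold change stayed between -0.56 and -0.49 in all alternatives. For Lpl, its partner, the log2 fold change was 1.98 and did not pass.

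The droplet coat protein of most cell types, Plin2, was the most abundant of those 24 genes, at 74.3, 80.1 and 87.9 FPKM in the deficient tumours, against 67.5, 52.7 and 66.1 FPKM in the wild-type tumours (log2 fold change 0.38, SE 0.12, adjusted p = 0.198). Next by level were the carrier Fabp5 (log2 fold change 0.53, adjusted p = 0.278) and the acyl-CoA synthetase Acsl5 (0.41, adjusted p = 0.168). G0s2, the inhibitor of the lipase Pnpla2, was picked after its values were seen. It had 6.40, 5.34 and 9.16 FPKM in the deficient tumours, against 2.37, 3.32 and 3.05 FPKM in the wild-type tumours, without overlap (log2 fold change 1.005, SE 0.19, adjusted p = 0.0562).

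**Figure D5:**
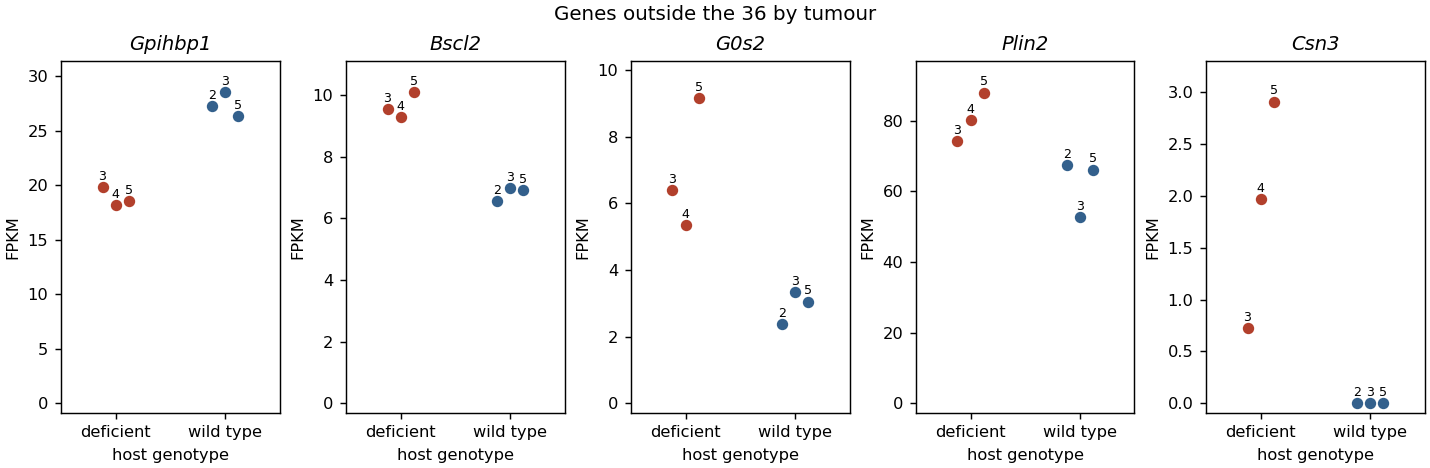
FPKM of Gpihbp1, Bscl2, G0s2, Plin2 and Csn3 in each tumour, deficient left of wild type, on linear axes; digits are tumour numbers and each point is 1 library. Gpihbp1 is lower in every deficient tumour (18.2 to 19.8 FPKM, against 26.4 to 28.6 FPKM in wild type), and the other 4 genes are higher in every deficient tumour, with Csn3 at 0 in all wild-type tumours.

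The remaining lipid lists gave no call in either direction. Of 19 further genes of lipid synthesis, 11 were above 0 and 8 below, with a median of 0.04, the same as for the 7 tested synthesis genes of the 36. The most abundant were the desaturase Scd2 (-0.13, adjusted p = 0.656), Pgd of the NADPH-making pentose phosphate pathway (0.22, adjusted p = 0.359) and the elongase Elovl5 (0.21, adjusted p = 0.421). Of 11 further fat cell transcription factors, 4 were above 0 and 7 below, with a median of -0.03, including Cebpb (0.20, adjusted p = 0.645), Cebpd (-0.89, adjusted p = 0.152) and Rxrb (-0.02, adjusted p = 0.950). All 4 tested thermogenic genes lay between 0.01 and 0.10, the most abundant being Dio2, Cox7a1 and Tmem26. Of 11 genes of fatty acid oxidation, 5 were above 0 and 6 below, with a median of -0.02, and the most abundant, Hadha, Acadl and Acadm, lay between -0.05 and 0.11. Of 11 genes of fat and stromal progenitors, 7 were above 0 and 4 below, with a median of 0.63, led in level by Ly6a (1.29, adjusted p = 0.0973), Thy1 (0.63, adjusted p = 0.290) and Ly6c1 (1.31, adjusted p = 0.0967).

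Markers of other tissues that lie near the skin were measured in the same tumours. The 10 tested skeletal muscle markers were all below 0 (median -0.26, 0 called), and the list summed to 10.4, 42.2 and 6.77 FPKM in deficient 3, 4 and 5, against 14.5, 70.3 and 9.17 FPKM in wild type 2, 3 and 5. Muscle markers were highest in deficient 4 and wild type 3, the tumours with the lowest summed fat cell markers of their groups. The 9 skin markers in the table summed to 11.8, 6.81 and 10.3 FPKM in the deficient tumours, against 7.60, 8.37 and 11.2 FPKM in the wild-type tumours, with 0 of 4 tested called. Of the 9, only the basal keratin gene Krt5 was higher without overlap in the deficient tumours, against 10.83% of all genes with no filter. Krt5 was picked after its values were seen. It had 0.109, 0.497 and 0.602 FPKM in the deficient tumours, against 0, 0.0233 and 0.0466 FPKM in the wild-type tumours. Of 9 listed mammary markers 6 were in the table. Of these, 3 were higher without overlap in the deficient tumours, against 10.83% of all genes with no filter. They were Csn3, Prlr and Elf5, which were singled out after their values were seen. The milk protein gene Csn3 had 0.724, 1.97 and 2.91 FPKM in the deficient tumours and was at 0 in all wild-type tumours (limma-trend adjusted p = 0.0595, limma-voom adjusted p = 0.0304). Prlr, the prolactin receptor, had 112, 125 and 645 fragments in the deficient tumours, against 10, 0 and 1 in the wild-type tumours. Elf5, a factor of mammary epithelium, had 32, 39 and 63 fragments in the deficient tumours, against 32, 10 and 11 in the wild-type tumours, and 0.366 FPKM in deficient 3 against 0.347 FPKM in wild type 2. Lalba, another milk protein gene, had at most 1 fragment in any tumour, and the keratins Krt8 and Krt18 overlapped. The part of muscle, skin or mammary tissue in the differences of the fat cell genes was not tested.

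Other cells that use lipid genes were also measured. All 13 macrophage markers were above 0 (median 0.35) and 1 was called higher, Cd163, with 4.63, 2.96 and 5.98 FPKM in the deficient tumours, against 0.225, 0.679 and 1.22 FPKM in the wild-type tumours (log2 fold change 1.70, limma-trend adjusted p = 0.0376). That call did not hold by limma-voom (adjusted p = 0.0748), with a pseudocount of 0.1 or no filter, or with any library but deficient 4 left out (0.0503 to 0.173). Of the 13, 6 were higher and 0 lower without overlap, against 11.8% and 8.31% of all tested genes. The macrophage list summed to 6133, 4115 and 7046 FPKM in the deficient tumours, against 4487, 3953 and 4136 FPKM in the wild-type tumours. The 12 markers of lipid-laden macrophages had a median of 0.19 with 0 called, and 4 were higher and 0 lower without overlap. The 11 endothelial markers, cells that also express Cd36, Fabp4 and Gpihbp1, had a median of -0.03 with 0 called and summed to 75.7, 70.1 and 118 FPKM in the deficient tumours, against 71.4, 89.4 and 99.2 FPKM in the wild-type tumours. Of 10 epithelial tumour markers 8 were above 0 (median 0.27, 0 called). Without overlap 5 were higher and 1 lower, against 11.8% and 8.31% of all tested genes. The epithelial markers without overlap are named for that reason, after their values were seen. Among them, Epcam had 1.19, 3.21 and 5.47 FPKM in the deficient tumours, against 0.0983, 0.312 and 0.324 FPKM in the wild-type tumours (adjusted p = 0.0808). Cldn4 had 0.795, 0.255 and 2.81 FPKM in the deficient tumours and was at 0 in all wild-type tumours (adjusted p = 0.236), Cdh1, Muc1 and Cldn7 were the others that were higher, and Sox9 was the lower one. Of 11 fibroblast markers 8 were below 0 (median -0.54, 0 called). Without overlap 0 were higher and 3 lower, against the same 11.8% and 8.31% of all tested genes. The part of these cells in the levels of the lipid genes was not tested.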

How the data were processed

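Per the labels' protocols, TRIzol extracts went through the VAHTS Universal V6 kit to NovaSeq sequencing in paired reads of 150 bp. HISAT2, HTSeq and R 3.2.0 appear in the submitters' processing notes with no role given. The genome build is not given in the sources used here. The authors deposited 1 table of 17352 genes whose values are taken as FPKM from the values themselves, since no header names the unit.

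Groups came from the genotype label. Genes with a mean of at least 0.5 FPKM (12257) entered a two-sided limma-trend fit on log2(FPKM + 1) with a group term only (limma 3.58.1, R 4.3.3), and an adjusted p under 0.05 (Benjamini-Hochberg over all tested genes) was a call. A fold change on this scale understates the change of low genes. For 16541 of the 16543 genes above 0 in at least 2 libraries, the spacing of a gene's values gave whole fragment numbers (tolerance 1e-05 of a fragment), used for depth, Poisson intervals and limma-voom. Intervals cover counting error only. The fit was tested on 5 simulations of deficient against wild type, with 200 of 12257 genes changed. It found 80.8% of genes changed 2-fold and 97.2% of those changed 4-fold, with 5.41% false calls. The changed genes were drawn from those with a mean log2 level above 1, each with its own spread. These shares do not hold for widely varying genes such as Cfd (SE 0.86) and Adipoq (SE 0.79), against SE 0.10 for Acly. Replicate numbers 3 and 5 occur in both groups, but the labels do not say that they pair the libraries. The main fit therefore used no block.

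The genes and all lists were chosen with earlier results of these data known. Named beside the 36 are Anxa1, a Y-linked gene and, from the lipid and progenitor lists, the called genes and the 3 most abundant. For the marker lists of other cells, called genes and some abundant ones are named, and several lists are given only as counts, medians or sums. Genes picked after their values were seen are named as such. Markers of pancreas acinar cells (2 tested) and Schwann cells (4 tested) were also fitted, with 0 called. Promoters are RefSeq windows on GRCm38.p6, used for sequence only. Alternatives were other pseudocounts, filters, scalings, thresholds and weights, a replicate block, each library left out and, added after seeing the data, limma-voom.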

Additional observations from a re-analysis of the deposited data

How the results depend on the processing

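Of the 457 alternative values for the 27 tested genes, 415 kept direction and side of the threshold, 25 came past it in the same direction and 17 turned sign, all 17 in genes whose log2 fold change was near 0, and 21 of the 27 genes kept their sign throughout. The number of the 27 called higher was 1 with a pseudocount of 0.1 (Retn), 2 at an adjusted p under 0.1, and 0 to 8 over the left-out libraries, against 0. With a replicate block it was 15, but only numbers 3 and 5 occur in both groups. The block therefore compared only deficient 3 with wild type 3 and deficient 5 with wild type 5. Deficient 4 and wild type 2 did not contribute to that comparison. Over all tested genes, same-numbered libraries did not deviate together (correlations -0.0897 for number 3 and -0.00847 for number 5). For Adipoq, Lep, Retn, Cfd, Plin1 and Cidec, however, number 5 was the highest library of both groups. The labels do not say whether a shared number marks a pair, and this was not tested for these genes. Genes called over the whole table numbered 633 higher and 354 lower with the block, 10 and 8 with no filter, 245 and 63 at an adjusted p under 0.1, and 7 to 270 higher and 3 to 66 lower with a library left out, against 120 and 28. Quantile normalization called 74 higher and limma-voom 66. With quantile normalization 1 of the 27 had all deficient tumours below all wild-type tumours (12.02% of all tested genes). With a library left out 0 to 2 did (11.5% to 15.8% of all), and 8 to 19 had them all above (14.2% to 22.7% of all), the 19 being without deficient 4 (20.98% of all) and 14 without wild type 5 (16.1% of all). Signs turned for Pnpla2 under quantile normalization (-0.0259) and the block (-0.0406), and its values over left-out libraries ran from -0.0063, without deficient 5, to 0.146. Acly turned under quantile normalization (-0.0031) and ran from -0.0553, without deficient 3, to 0.0994. Fasn ran from -0.0921, without deficient 3, to 0.317, and Cebpa from -0.0501, without deficient 5, to 0.258. Me1 turned with library weights (0.0558) and the block (0.309), and ran from -0.164 to 0.212, above 0 without deficient 3, deficient 4 or wild type 2. Dgat1 turned with library weights (-0.0209) and the block (-0.0087), and ran from -0.0877 to 0.178, below 0 when deficient 5, wild type 2 or wild type 5 was left out. The causes were not tested. With 3 tumours a group that differ widely among themselves, the spread between tumours limits these comparisons.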

Other observations

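All genes named here were picked after their values were seen. Among fat-associated genes outside the 36, Adig and Nnat had deficient 5 above deficient 3 above deficient 4, the order of Cidec in that group. Adig, a small protein induced in fat cell development, had 1.18, 0.539 and 3.15 FPKM in the deficient tumours, against 0.120, 0.0407 and 0.0406 FPKM in the wild-type tumours (log2 fold change 1.17, SE 0.32, limma-trend adjusted p = 0.154). Nnat, an imprinted gene expressed in brain and fat, had 2.20, 1.05 and 2.65 FPKM in the deficient tumours, against 0.414, 0 and 0.573 FPKM in the wild-type tumours (1.14, SE 0.25, adjusted p = 0.0917). Hsd11b1, the enzyme that regenerates active glucocorticoid in fat and fibroblasts, went the other way, with 19.6, 16.6 and 15.8 FPKM in the deficient tumours, against 22.8, 30.6 and 44.4 FPKM in the wild-type tumours (-0.83, SE 0.22, adjusted p = 0.142).

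Regulators of lipid synthesis also differed in direction without passing the test. Nr1h3, which encodes the oxysterol receptor LXRα, had 5.33, 4.51 and 4.72 FPKM in the deficient tumours, against 2.43, 1.46 and 2.88 FPKM in the wild-type tumours (0.87, SE 0.17, limma-trend adjusted p = 0.0677). Srebf1, which encodes a factor that drives lipogenic enzymes, had 22.3, 20.5 and 17.3 FPKM in the deficient tumours, against 24.1, 25.1 and 27.2 FPKM in the wild-type tumours (-0.34, SE 0.11, adjusted p = 0.210). Pdk4, the kinase that spares glucose when fatty acids are burned, had 3.50, 9.48 and 2.71 FPKM in the deficient tumours, against 15.7, 8.32 and 18.5 FPKM in the wild-type tumours (-1.37, SE 0.41, adjusted p = 0.188).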
